A study of Homo sapiens with 2 samples.

Results

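Histone lysine methyltransferases and demethylases add and remove methyl groups on lysines of the histone tails. Here they comprise 41 genes, chosen by name: the KMT, SETD and related methyltransferase families, the KDM families, and the core subunits and menin that work with the H3K4 enzymes. Polycomb repressive complex 2 and KDM1A, the chromatin partners for which HOTAIR is best known, were not among them. Of the 41 genes, 39 had a probe that could be named through its RefSeq accession, and these 39 genes had 65 probes with 98 spots out of 42402 probes on the array. SETD1B and KDM5A had no named probe and were not analysed. A probe could be compared, with a signal well above background on either array, for 38 of the 41 genes and for 13014 of 19061 named genes in all.

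The cells were SBC-3, a human cell line of small cell lung cancer. One culture had been transfected with an siRNA against the long noncoding RNA HOTAIR, called #1 siHOTAIR, and the control culture with an siRNA against green fluorescent protein, called siGFP. Each condition was measured on 1 one-colour Agilent 60K expression array, so that there was no replicate, no test between the conditions was possible, and the siRNA, the culture and the array cannot be told apart. Values below are processed signals of the scanner software, from which background had been subtracted. Log2 ratios are of #1 siHOTAIR over siGFP after each array was scaled to its own 75th percentile (650.3 and 629.9). The #1 siHOTAIR duplex is shown because it is the whole of the treatment, with the seed of the antisense strand, bases 2 to 8, in capitals.
#1 siHOTAIR antisense: uCUCUCUGuacucccguucuu
#1 siHOTAIR sense: gaacgggaguacagagagauu

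The single HOTAIR spot had signals of 108 (#1 siHOTAIR) and 244 (siGFP), which is 57.2% lower after scaling, a log2 ratio of -1.22 (measurement SD 0.22). The measurement SD comes from probes with 10 repeated spots of like signal and covers error within an array. It leaves out the spread between cultures. Among markers of small cell lung cancer and neuroendocrine cells, NEUROD1, YAP1 and DLL3 were well above background on both arrays. Their log2 ratios were -0.85, -0.10 and 0.21. CHGA and NCAM1 passed on 1 array, and POU2F3, INSM1 and SYP on neither. CHGA had signals of 72.2 (#1 siHOTAIR) and 10.2 (siGFP), and NCAM1 had 25.5 and 7.20 in the same order. Of 4 epithelial markers, KRT8 and KRT18 passed on both, EPCAM on 1 array and CDH1 on neither. Of 7 markers of blood, stromal, endothelial and alveolar cells, 4 were well above background on both arrays (PTPRC, CD68, COL1A1 and COL1A2), 1 on 1 array and 2 on neither. The log2 ratios of those 4 ranged from -0.04 for COL1A2 to 0.96 for COL1A1, and their part in the results below was not tested.

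Methylation of H3K4 marks promoters and enhancers in use. H3K9 methylation marks silent heterochromatin, H3K36 and H3K79 methylation lie over transcribed gene bodies, and H3K27 trimethylation is the mark that Polycomb repressive complex 2 lays down. Methyltransferases use S-adenosylmethionine as the methyl donor, most of them through a SET domain. Demethylases are either flavin enzymes of the KDM1 family or Jumonji enzymes, which need iron, oxygen and 2-oxoglutarate.

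Over the 38 genes, taking for each the probe with the highest mean signal, the log2 ratios ran from -0.62 for SETDB2 to 0.94 for KDM6B, with a median of 0.11. The median over all 13014 genes was 0.02. Ratios were above 0 for 24 of the 38 genes (63.2%) and for 52.3% of all genes. For the 10813 genes within the range of signal of these 38, the median was 0.03 and 54.2% were above 0. KDM6B and SMYD2 were at least 1.5-fold higher, where 8.12% of all genes were. SMYD2, at a log2 ratio of 0.59, fell below that limit with quantile normalization (0.56), the median of detected probes (0.56), normexp (0.56), no background correction (0.56) and the value table (0.57). KDM6B fell below it with normexp (0.30) and no background correction (0.26), and it dropped out where both arrays had to pass. SETDB2 was at least 1.5-fold lower, where 8.71% of all genes were. None reached 2-fold in either direction, which 2.74% of all genes did upward and 3.41% downward. The median size of the log2 ratio, whatever its sign, was 0.22 for these 38 genes and 0.24 for all genes.

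**Figure D1:**
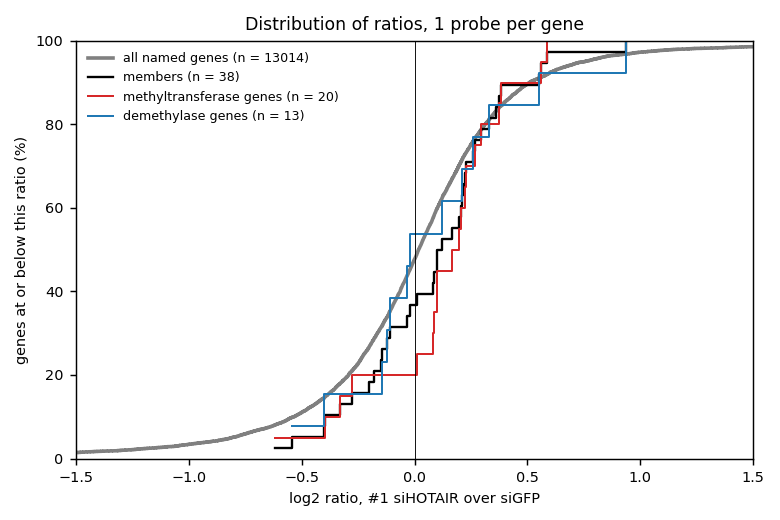
Share of genes, in percent, at or below each log2 ratio of #1 siHOTAIR over siGFP, with 1 probe per gene. The line of the 38 genes with a compared probe (members, black) lies to the right of the line of all 13014 genes over most of the middle of the plot, with medians of 0.11 and 0.02, and ends at 0.94. Methyltransferase genes are in red and demethylase genes in blue, and the 5 core subunit and menin genes are in the black line only.

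The 20 methyltransferase genes that could be compared had a median log2 ratio of 0.18, and 16 of them were above 0. The 13 demethylase genes had a median of -0.02, and 6 were above 0. The difference between the groups has no test with 1 array per condition. The demethylase median was above that of all genes under other settings, at 0.09 against 0.01 with normexp background correction and 0.12 against 0.02 when all probes of a gene were used. The methyltransferase median stayed between 0.13 and 0.32 over the 11 alternatives set at the outset.

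**Figure D2:**
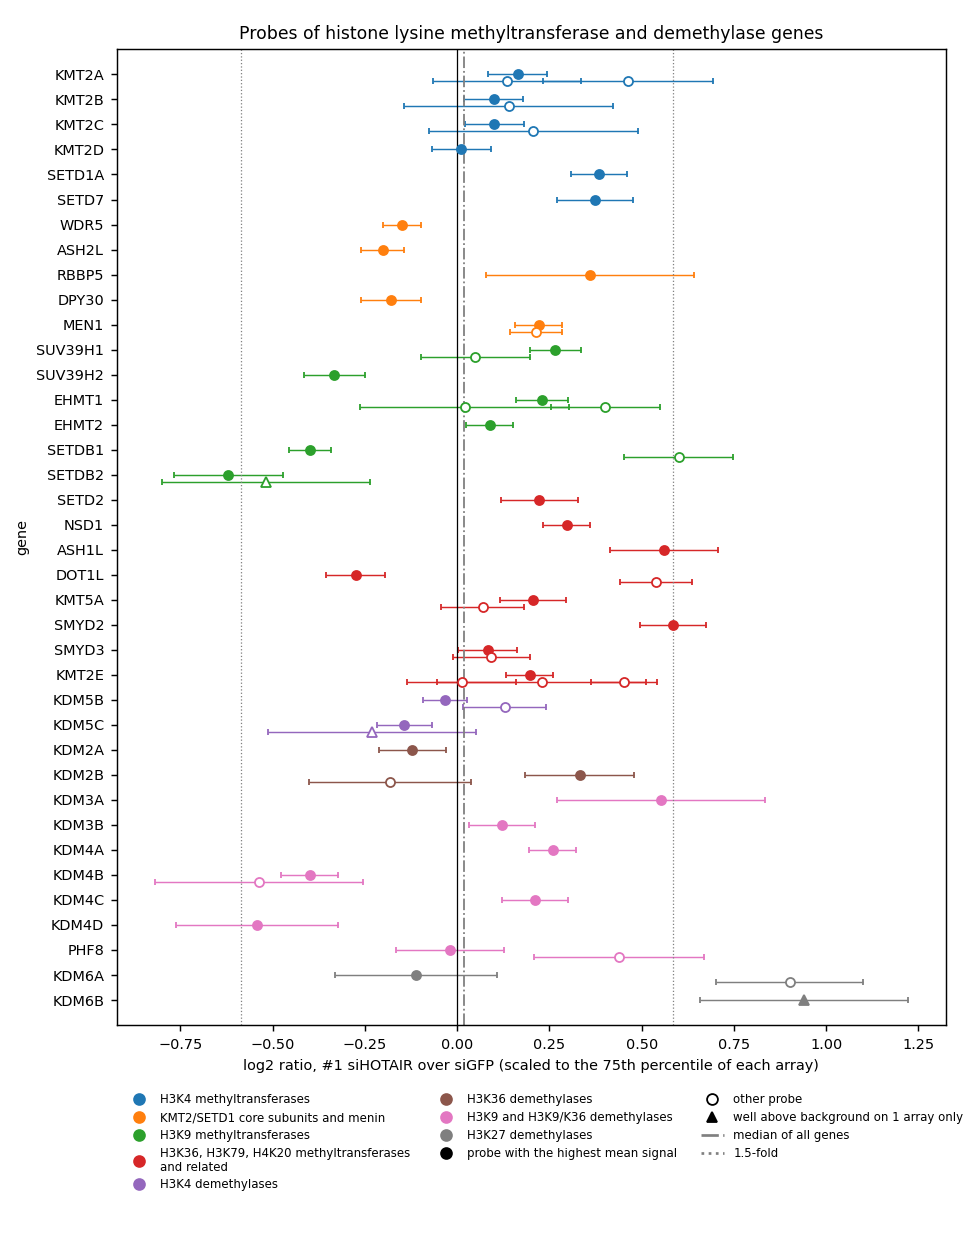
Log2 ratio of #1 siHOTAIR over siGFP for each of the 60 compared probes, by gene and coloured by role. Bars are 1 measurement SD on each side, filled symbols the probe with the highest mean signal and triangles probes well above background on 1 array only. All symbols of the H3K4 methyltransferases are to the right of 0, while SETDB1, DOT1L and KDM6A have 1 probe on each side.

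All compared probes of the H3K4 methyltransferases, 10 probes of 6 genes, had log2 ratios above 0, with a median of 0.13 over the genes. Of all compared probes on the array, 51.7% were above 0. KMT2A, KMT2B, KMT2C and KMT2D are the large enzymes of the MLL family, which methylate H3K4 at promoters and enhancers. KMT2A had signals of 2553 (#1 siHOTAIR) and 2207 (siGFP), an order kept for all pairs of signals below, in its brightest probe (log2 ratio 0.16 ± 0.08, measurement SD, 1 spot). KMT2B had 897 and 811 (0.10). Both were slightly higher in #1 siHOTAIR-transfected cells, by no more than about 2 measurement SDs. KMT2C had 477 and 430 (0.10). KMT2D had 798 and 767, a log2 ratio of 0.01, which turned to -0.03 with quantile normalization. The other probes of KMT2A were dimmer, with 167 and 117 (0.46 ± 0.23, 1 spot) and 144 and 127 (0.13 ± 0.20, 2 spots). SETD1A is the catalytic subunit of a complex that lays down H3K4 trimethylation broadly. Its signals were 5968 and 4431, a log2 ratio of 0.38 ± 0.08 (1 spot), and 13.5% of all compared probes of like signal were as far from 0. SETD7, which monomethylates H3K4 and several proteins that are not histones, had 265 and 198 over 2 spots (0.37 ± 0.10).

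Of the 5 partners of these enzymes, 3 were below 0 and 2 above. WDR5, RBBP5, ASH2L and DPY30 form the core module that all enzymes of the MLL and SETD1 complexes need for full activity. WDR5 had signals of 7516 and 8070 (log2 ratio -0.15), ASH2L 1896 and 2112 (-0.20) and DPY30 4278 and 4692 (-0.18). All 3 were lower in #1 siHOTAIR-transfected cells, by less than 1.5-fold. They lay 2.88, 3.45 and 2.24 measurement SDs from 0, and 1.03, 1.40 and 0.88 of the larger SDs that the scanner software assigns. With spike-in scaling, which moves all genes upward, they were -0.01, -0.06 and -0.04. RBBP5 was on the other side of 0 with dim signals of 128 and 96.7 in 1 spot (0.36 ± 0.28). MEN1 encodes menin, which tethers KMT2A and KMT2B to chromatin. Its 2 probes, of 2 spots each, had nearly the same ratio, with signals of 1221 and 1014 (0.22) and of 965 and 806 (0.21).

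Among the 6 H3K9 methyltransferases, 3 were above 0 and 3 below, and this group held the lowest ratio of all 38 genes. SETDB2, a relative of SETDB1, had signals of 221 and 329 in 1 spot, a log2 ratio of -0.62 ± 0.15 (34.9% lower). Of all compared probes of like signal, 13.8% were as far from 0. Its other probe, well above background on the siGFP array only, had 37.4 and 51.9 (-0.52 ± 0.28, 1 spot), and 50.6% of probes of like signal were as far from 0. SUV39H1 and SUV39H2 are paralogs that trimethylate H3K9 in pericentric heterochromatin, and they lay on opposite sides of 0. SUV39H1 had 968 and 780 (0.27 ± 0.07, 2 spots) and SUV39H2 had 1900 and 2318 (-0.33 ± 0.08, 1 spot). By the larger SD that the scanner software assigns, these ratios were 1.84 and 1.63 SDs from 0. The other SUV39H1 probe had 225 and 211 (0.05 ± 0.15, 1 spot). EHMT1 and EHMT2, also called GLP and G9a, act as a dimer that places H3K9 mono- and dimethylation. EHMT1 had 989 and 817 (0.23) with its other probes at 0.40 and 0.02, and EHMT2 had 1207 and 1100 (0.09).

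SETDB1 trimethylates H3K9 at retroelements, and its 2 probes gave opposite directions. The bright probe had 2 spots, with signals of 2245 and 2399 on the #1 siHOTAIR array. On the siGFP array they were 3018 and 2910 (log2 ratio -0.40 ± 0.06). The dim probe, with 1 spot, had 342 and 218 (0.60 ± 0.15). The ratios of these probes differed by 1.00 on the log2 scale, against a measurement SD of that difference of 0.16. Which transcripts each probe detects was not analysed here.

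The 8 enzymes of H3K36, H3K79 and H4K20 and related proteins had a median of 0.21, and 7 of the 8 were above 0. By probes, 13 of 14 were above 0, where 51.7% of all compared probes were, and probes of 1 gene are not independent. SMYD2, which methylates H3K36 and proteins such as p53, had signals of 1826 and 1179 in 1 spot. Its log2 ratio of 0.59 ± 0.09 was just inside the 1.5-fold limit, and 8.88% of compared probes of like signal were as far from 0. ASH1L, which dimethylates H3K36, lay just outside it with 282 and 185 in 1 spot (0.56 ± 0.15). The other H3K36 enzymes were higher by smaller amounts. NSD1, which dimethylates H3K36, had 1371 and 1278 in its 2 spots on the #1 siHOTAIR array and 1116 and 977 on the siGFP array (0.30 ± 0.06). SETD2, the enzyme of H3K36 trimethylation, had 242 and 201 (0.22 ± 0.10, 2 spots). KMT5A, the H4K20 monomethyltransferase, had 1554 and 1305 (0.21), and SMYD3, which methylates histone and other proteins, had 3162 and 2891 (0.08). KMT2E is an MLL relative for which little catalytic activity is known. Its 4 probes were all at or above 0, from 0.01 to 0.45, and the brightest had 1140 and 964 (0.20).

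DOT1L is the only known H3K79 methyltransferase of human cells and, unlike the others, has no SET domain. Its 2 probes, with 2 spots each, gave opposite directions. One had signals of 518 and 520 on the #1 siHOTAIR array and of 600 and 617 on the siGFP array (log2 ratio -0.28 ± 0.08). The other had 436 and 473 against 282 and 324 (0.54 ± 0.10). The probes differed by 0.81 (measurement SD of the difference 0.13). Averaging the probes of each gene turned DOT1L to 0.13 and SETDB1 to 0.10.

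**Figure D3:**
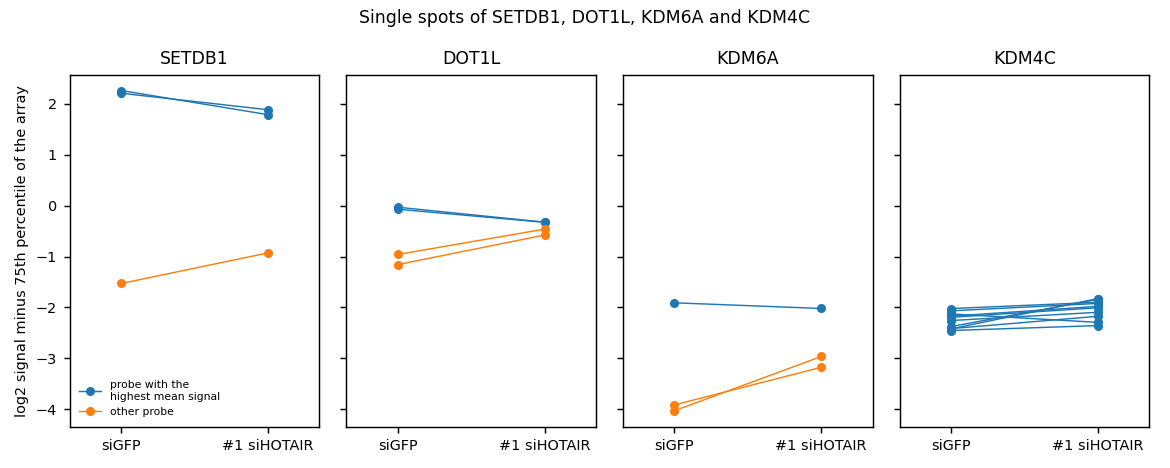
Log2 signal, relative to the 75th percentile of the array, of each spot of SETDB1, DOT1L, KDM6A and KDM4C, with lines joining the same spot position on the 2 arrays. Probes of SETDB1, DOT1L and KDM6A slope in opposite directions, while 9 of the 10 KDM4C spots slope upward. Levels of different probes are not comparable.

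Of the demethylases of H3K4 and H3K36, KDM5B, KDM5C and KDM2A were within 0.15 of 0 in their brightest probes, and KDM2B was higher. KDM5B, which removes H3K4 trimethylation, had signals of 1778 and 1762 (-0.03) and 786 and 696 (0.13) in its 2 probes. Its paralog KDM5C had 833 and 891 (-0.14), and a second probe was well above background on the siGFP array only, with 41.4 and 47.0. In the brightest probes, the ratios of both paralogs were within the shift that spike-in scaling gives all genes. The second KDM5C probe was beyond it, at -0.23 ± 0.28. KDM1B, the flavin-dependent paralog of KDM1A, was well above background on neither array, with signals of 13.1 and 10.5 and of 18.6 and 6.26 in its 2 probes, and no ratio is given. KDM2A and KDM2B demethylate H3K36 and bind unmethylated CpG islands, where KDM2B recruits a Polycomb complex. KDM2A had 1273 and 1341 (-0.12). KDM2B had 343 and 264 (0.33 ± 0.15) in 1 probe and 149 and 163 (-0.18 ± 0.22) in the other. The sign of KDM2A turned with spike-in scaling.

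The 7 demethylases of H3K9, some of which also act on H3K36, spread over both sides of 0, from -0.54 for KDM4D to 0.55 for KDM3A. KDM3A and KDM3B remove H3K9 mono- and dimethylation, and KDM3A is a known target of hypoxia-inducible factor. KDM3A had dim signals of 90.9 and 60.05 in 1 spot (0.55 ± 0.28), and KDM3B had 986 and 878 (0.12). Members of the KDM4 family, which remove H3K9 trimethylation, lay on both sides of 0. KDM4A had 1025 and 830 over 2 spots (0.26 ± 0.06). KDM4B had 4246 and 5425 in 1 spot (-0.40 ± 0.08), and its dim second probe had 49.3 and 69.4 (-0.54 ± 0.28). KDM4D had 155 and 219 in 1 spot (-0.54 ± 0.22). KDM4A and KDM4B thus differed in direction by more than their error within an array, and both KDM4B probes were lower in #1 siHOTAIR-transfected cells. By the larger SD that the scanner software assigns, KDM4A and the bright KDM4B probe were 1.79 and 1.96 SDs from 0.

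KDM4C was the only one of the 38 genes printed in 10 spots, which shows how far single spots scatter. Its spots ran from 127 to 184 on the #1 siHOTAIR array, with a median of 164, and from 115 to 155 on the siGFP array, with a median of 135. The spots overlapped between the arrays. Spot by spot, 9 of 10 were higher on the #1 siHOTAIR array, with log2 ratios from -0.17 to 0.60 (SD 0.22) around a mean of 0.21. A gene of this signal with 1 spot could therefore have been read anywhere in that range. Most of the 65 probes, 40, had a single spot. PHF8, which removes H3K9 dimethylation and H4K20 monomethylation, had 185 and 182 (-0.02) in 1 probe and 185 and 132 (0.44 ± 0.23) in the other, each with 1 spot.

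The compared probes with the 2 highest ratios belonged to the H3K27 demethylases, both with dim signals. KDM6B, also called JMJD3 and known as a gene induced by inflammatory stimuli, had a signal of 58.8 on the #1 siHOTAIR array. Its spot on the siGFP array, at 29.7, was not well above background. The ratio of 1.92-fold (log2 0.94 ± 0.28, 1 spot) is therefore an uncertain estimate and not a lower limit. The SD that the scanner software assigns to it was 0.47. Of compared probes of like signal, 29.6% were as far from 0. KDM6A, also called UTX and a subunit of the KMT2C and KMT2D complexes, gave a different answer in each of its probes. The brighter probe had 160 and 168 in 1 spot (-0.11 ± 0.22). The dimmer had 72 and 83 in its 2 spots on the #1 siHOTAIR array and 42 and 39 on the siGFP array, which is 1.87-fold (0.90 ± 0.20), and 30.9% of probes of like signal were as far from 0. The ratios differed by 1.01, with a measurement SD of the difference of 0.30. Without background subtraction the KDM6B ratio was 0.26.

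**Figure D4:**
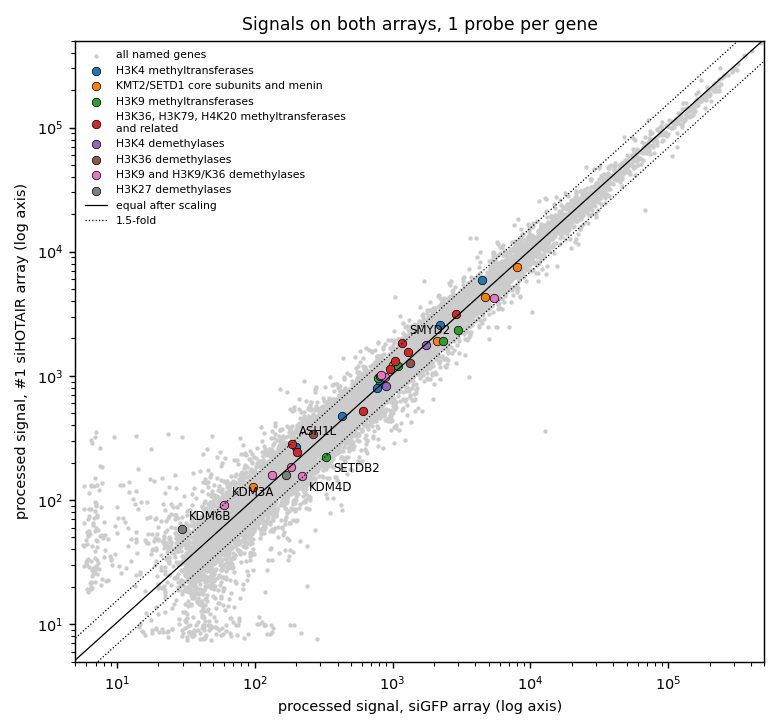
Processed signal on the siGFP array (horizontal, log axis) and the #1 siHOTAIR array (vertical, log axis) for all named genes in grey and the 38 genes in colour by role, 1 probe per gene. The solid line marks equal signal after scaling and dotted lines 1.5-fold, and genes with a log2 ratio of at least 0.5 in size are named. KDM6B, at 29.7 and 58.8, lies where the grey cloud is wide.

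Counted by probes, 60 of the 65 could be compared, of which 57 had detected signal in both conditions. Probes at least 1.5-fold higher numbered 4 of 60 (KDM6B, SMYD2, the dimmer KDM6A probe and the dimmer SETDB1 probe), where 8.5% of all 24117 compared probes were. At least 1.5-fold lower was 1 of 60 (SETDB2), where 9.74% of all compared probes were. Of the 18 genes with 2 or more compared probes, 6 had probes on both sides of 0 (33.3%), and the same held for 33.5% of the 2934 such genes on the array. Probe ratios differed by at least 0.75 in KDM6A, SETDB1 and DOT1L (16.7%), against 13.4% of all such genes. Disagreement between probes was therefore about as frequent here as over the whole array.

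Set against the error within an array, 25 of the 38 ratios were more than 2 measurement SDs from 0, 16 of them higher and 9 lower. That is 65.8%, and the share of all genes was 53.7%. With the larger error that the scanner software assigns to each spot, 9 of the 38 were more than 2 SDs from 0, 6 higher and 3 lower (23.7%, and 28.2% of all genes). KMT2D, KDM2A, KDM5B, KDM5C, PHF8 and KDM6A lay so near 0 that their sign turned between ways of scaling the arrays, which shift all genes by nearly the same amount.

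**Figure D5:**
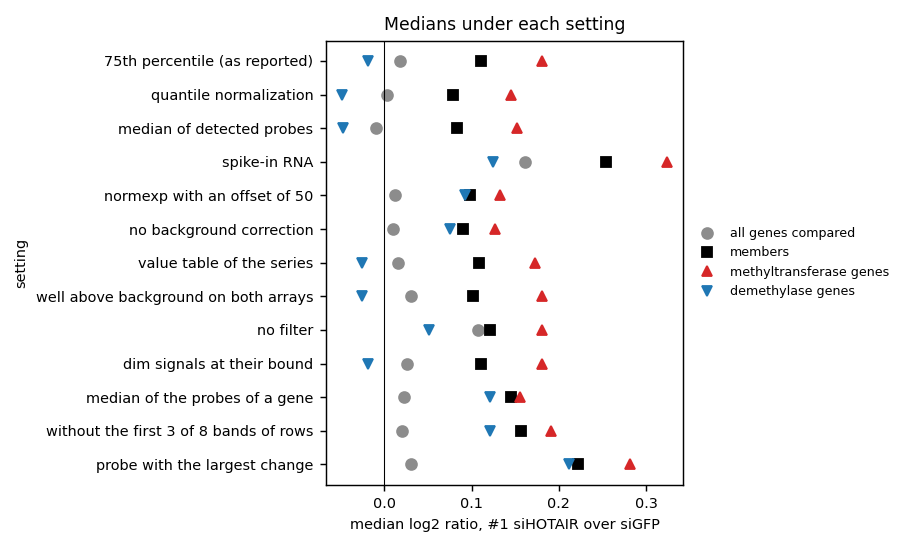
Median log2 ratio of #1 siHOTAIR over siGFP (horizontal) for all genes compared, the genes described here (members), and their methyltransferase and demethylase genes, under each setting (vertical). The median of the members lies to the right of that of all genes in every row, by 0.09 as reported and by 0.01 with no filter on dim probes, while the demethylase median lies below that of all genes in some rows and above it in others.

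Scaling on spike-in RNA moved all genes upward together, with the median of all 13014 genes at 0.16. The median of the 38 genes was above it by 0.09, as with the 75th percentile, and by 0.08 with quantile normalization. Of their 98 spots, 38.8% lay in the first 144 of the 384 rows of the array, as did 37.5% of all spots. The median log2 ratio of their spots was 0.21 there and 0.13 in the other rows, where that of all spots, dim ones included, was 0.14 in both.

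Other genes of histone lysine methylation were taken from a list of 49 further methyltransferases, demethylases and binding partners, of which 44 could be compared. Their median log2 ratio was 0.10, and 30 were above 0. Of the 44, 1 was at least 1.5-fold higher and 2 at least 1.5-fold lower, beside 8.12% and 8.71% of all genes. The only one past 2-fold was PAGR1, a subunit of the KMT2C and KMT2D complexes, with signals of 152 and 381 in 1 spot (log2 ratio -1.37 ± 0.20). NSD2, a paralog of NSD1 that dimethylates H3K36, had 1173 and 619 over 2 spots (0.88 ± 0.07). This was the brightest of its 5 probes, and the others are not reported here. HCFC1, a subunit of the SETD1 complexes, was well above background on the siGFP array only. NSD2 and HCFC1 were named after their values were seen.

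RefSeq start sites of the GRCh38.p14 assembly were at hand for 37 of the 41 genes, in 57 windows of 250 bases before the start. The median GC content of these promoter windows was 65.6%, with a range from 43.2% to 92.0%, and it was 58.0% over 35116 windows of 27305 genes. The ratio of observed to expected CpG was at least 0.6 in 46 of the 57 windows (80.7%) and in 47.5% of all windows, and the other 11 went down to 0.06. Each of the 37 genes had at least 1 such window, as did 50.6% of all genes, which include noncoding genes. On either strand, TATAAA was in 0 of the 57 windows and in 10.7% of all, CCAAT in 20 (35.1%, and 32.0% of all), and CCGGAA in 12 (21.1%, and 14.5% of all). None of these letter strings contains another. A window of each H3K27 demethylase gene is shown because these genes held the compared probes with the highest ratios. Each window is written 5′ to 3′ with each CpG in capitals. That of KDM6A, chrX:44872938-44873187 on the plus strand, held 27 CpG, and the upstream one of KDM6B, chr17:7833967-7834216 on the plus strand, held 21.
KDM6A: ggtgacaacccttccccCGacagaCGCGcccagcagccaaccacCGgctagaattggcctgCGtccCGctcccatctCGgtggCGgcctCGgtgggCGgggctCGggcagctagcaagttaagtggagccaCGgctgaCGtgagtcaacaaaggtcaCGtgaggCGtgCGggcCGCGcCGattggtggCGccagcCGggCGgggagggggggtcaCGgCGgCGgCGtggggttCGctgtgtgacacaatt
KDM6B: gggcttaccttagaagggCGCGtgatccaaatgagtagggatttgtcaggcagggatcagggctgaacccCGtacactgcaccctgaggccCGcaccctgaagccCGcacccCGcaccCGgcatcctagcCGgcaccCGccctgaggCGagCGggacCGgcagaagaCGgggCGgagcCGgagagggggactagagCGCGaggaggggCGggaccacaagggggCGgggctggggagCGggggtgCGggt
A second KDM6B window, chr17:7839667-7839916, is not shown and differed from the first, with 1 CpG, a GC content of 50.4% and an observed to expected CpG ratio of 0.06. No methylation was measured.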

How the data were processed

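The authors labelled total RNA with Cy3, hybridized it to SurePrint G3 arrays and extracted spots with Agilent Feature Extraction 10.10.1.1. The intensity used here is the processed signal the authors deposited, from which background had been subtracted and which had not been normalized between arrays. Both arrays were on 1 slide and in 1 scan. The deposited value table equals the background-subtracted intensity of the scanner output (largest difference 0), which is a separate measure from the processed signal.

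Log2 signals were set against the 75th percentile of each array over spots that are not controls, which was 650.3 and 629.9, and spots of a probe were averaged without those marked as outliers. Compared probes had 50% or more of their spots marked well above background in 1 or both conditions, as 55.5% and 58.3% of all spots were. For a probe above it on 1 array only, the dim side of the bound is its own signal or, if higher, the lowest signal well above background (37.3 and 28.6). In all 3 such probes of these genes the own signal was higher, so the bound equals the ratio and sets no limit. Levels of different probes were not compared. The probe with the highest mean signal stood for a gene. Measurement SDs were taken over probes printed 10 times, in 6 bins of signal. Such a probe kept 9 or more spots once outliers were left out, with 50% or more well above background. Probes of like signal are those in the same sixth of compared probes. Accessions were matched to names of GRCh38.p14. The number of arrays limits the precision.

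The genes, their roles and the lists were chosen with earlier results of these data known. All 41 genes are named, with values for those past 1.5-fold, with discordant probes, near those limits or needed for a role. Other listed genes were to be named if past 2-fold. One marker of the cell type lists is not reported here. The alternatives were quantile, detected-median and spike-in scaling (7 probes), normexp with an offset of 50, no background correction, the value table floored at 10, other filters, dim signals at their bound, the median of probes, and leaving out the first 3 of 8 bands of rows. The scanner output holds median pixel signals, so normexp used these in place of means. The probe with the largest change was added as an alternative after the data had been seen. Tested on simulated data with the 24117 compared probes, the 1.5-fold limit recovered 97 of 100 probes with a 2-fold change and 100 of 100 with a 3-fold change, and called 1.10% of unchanged probes. The simulated error was only the measurement SD within an array, without the spread between cultures. Changed probes were drawn from those well above background on both arrays. These shares are therefore not error rates of the comparison of the 2 cultures. Python 3.11.15, pandas 2.3.3, R 4.3.3 and limma 3.58.1 were used.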

Additional observations from a re-analysis of the deposited data

How the results depend on the processing

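No paired analysis was possible because there was 1 array per condition. The number of genes at least 1.5-fold higher, 2 as reported, was 1 with quantile normalization, with the median of detected probes, with the value table and with probes well above background on both arrays, 0 with normexp and without background correction, 3 without the first 3 of 8 bands of rows, and 4 with spike-in scaling and, chosen after seeing the data, with the probe of largest change. The number at least 1.5-fold lower, 1 as reported, was 0 with spike-in scaling, without background correction and with the median of the probes of a gene. The number at least 2-fold higher, 0 as reported, was 1 with spike-in scaling (KDM6B, log2 ratio 1.08) and 1 without the first 3 of 8 bands of rows, where KDM6A rested on 1 spot of its dimmer probe (1.07). No gene was at least 2-fold lower under any setting. The median log2 ratio, 0.11 as reported, was 0.25 with spike-in scaling and 0.22 with the probe of largest change, and stayed above 0 under all settings. For single genes, 276 of 335 ratios moved by less than the measurement SD and 59 by more, leaving out 3 settings (no filter, both arrays, dim signals at their bound) that did not move the ratio of any gene's brightest probe. Of the 335, 65 were identical to the reported ratio and are counted among the 276. The 335 include the setting chosen after seeing the data. The 1.5-fold calls that were lost were those of SMYD2 and KDM6B upward and SETDB2 downward. Signal over background limits the dim probes, foremost those of KDM6A, KDM6B, KDM3A, RBBP5 and KDM4D, most of which had 1 spot. The cause of these shifts was not tested.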
